A study of Mus musculus with 8 samples.

Results

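Integrins are cell-surface receptors built from 1 alpha and 1 beta subunit, and they tie a cell to its matrix or to other cells. The 10 genes described here, Itga4, Itga5, Itga6, Itgal, Itgam, Itgav, Itgax, Itgb1, Itgb2 and Itgb7, were given as a list of names and were read from 55335 genes by their Ensembl identifiers. The cells sequenced were RAW264.7, a mouse line of macrophage character made from a tumour, after 3 days with 1 of 2 bone scaffold materials. Hydroxyapatite doped with magnesium ions (HA/Mg) and the Trio-Active bone scaffold (TABS) had 4 libraries each, numbered as replicates 5 to 8 in both groups. The labels used here name neither the components of TABS nor any cells grown without a scaffold, so every comparison is of TABS with HA/Mg in the same unmodified line. Groups follow the sample titles, which write HA for HA/Mg. The library names carry the letter H for TABS libraries and L for the others, and if the titles had been swapped each direction below would turn around.

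A macrophage pairs its subunits in a restricted way. The leukocyte subunit Itgb2 (CD18) joins Itgal to form LFA-1, Itgam to form Mac-1 and Itgax to form CD11c/CD18, which bind intercellular adhesion molecules and complement fragments. Itgb1 joins many alpha subunits, among them Itga5 in the classical fibronectin receptor, Itga4 in a receptor for fibronectin and the vascular adhesion molecule Vcam1, Itga6 in a laminin receptor, and Itgav. Itgb7 joins Itga4 in a receptor for the mucosal adhesion molecule Madcam1. A single subunit does not normally reach the surface without a partner, and RNA levels do not measure the surface protein.

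The libraries held 9908 to 10280 genes at 1 FPKM or more (FPKM, fragments per kilobase of transcript scaled to the mapped fragments of a library). The spacing of low values put the depth at 19600000 to 23600000 fragments, but 31.6% to 33.5% of these values were whole fragments within 0.05, so these depths are estimates. On the first principal component of log2(FPKM + 1), with 40.2% of the variance, the TABS group spanned 5.72 to 16.5, and replicates 5, 7 and 8 of HA/Mg spanned -16.4 to -12.7. HA/Mg replicate 6 stood apart from its group at 2.62. The macrophage genes Csf1r (96.5 ± 0.988 FPKM with HA/Mg), Adgre1 (85.2 ± 5.82), Spi1 (53.0 ± 2.40) and Ptprc (6.72 ± 0.278) were present (mean ± SD, n = 4), while Mertk and Mrc1 stayed under 1 FPKM in every library. None of 7 T cell, 6 neutrophil, 6 dendritic cell, 6 fibroblast and 5 endothelial markers reached the level for testing. The labels do not tell separate cultures from repeat preparations, so p-values measure only the variation among these libraries, some or all of it possibly technical, and in bulk RNA fewer cells with a transcript and less of it per cell cannot be told apart.

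Itga5 and Itgal rose with TABS, Itgb1 fell, and Itgb2 rose by a smaller amount that other processing did not always keep. The test was limma's moderated linear model on log2(FPKM + 1) over every gene that reached 1 FPKM in 4 or more libraries, two-sided, with Benjamini-Hochberg adjustment and a threshold of 0.05. Of the 10 genes 7 entered it, and Itga6, Itgav and Itgax were too low. Of those 7, 3 were higher with TABS, 1 was lower and 3 did not pass. Across all 10161 tested genes 18.1% passed, 5.07% higher with TABS and 13.1% lower. For the 4 subunits that passed, TABS and HA/Mg values lay fully apart, as they did for 23.1% of all tested genes. The median log2 change of the 7 was -0.02, and that of all tested genes -0.04. With 7 genes these shares describe the list and are no test of it.

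Markers of the cells themselves were read by the same test, which 18.1% of all genes passed. Of 9 tested macrophage markers 3 rose with TABS (Csf1r, Cd68 and Cd14), where 5.07% of all tested genes rose. The 6 that did not pass were Adgre1 (log2 change 0.25, limma adjusted p = 0.0579), Lyz2 (0.18), Fcgr1 (0.10), Spi1 (0.09), Ptprc (-0.12) and Cx3cr1 (-0.38). With each library's trends with transcript length and GC content removed, 4 were called higher, Adgre1, Csf1r, Cd68 and Cd14 (limma adjusted p up to 0.0495). The sum of all 11, mostly Lyz2 and Cd68, was 2013 to 2396 FPKM with HA/Mg and 2457 to 2736 with TABS. The Cd68 call ended when HA/Mg replicate 5, 7 or 8 was dropped (limma adjusted p up to 0.0660) and the Cd14 call without HA/Mg replicate 5 (0.0581). Of the B cell markers Ms4a1 and Pax5 were at or near 0, and Ighm did not pass. Cd79b rose (2.76 ± 0.443 to 3.94 ± 0.291 FPKM, limma adjusted p = 0.0222), a call that ended once each library's trends with transcript length and GC content were removed (0.0592) and when replicate 5 or 7 of either material was dropped (up to 0.0687). Of 7 osteoclast markers, which cells of this line can acquire, 5 were too low to test. Mmp9 rose from 98.1 ± 15.8 to 144 ± 12.2 FPKM (limma adjusted p = 0.0136) and makes up nearly all of the list's sum, 87.3 to 123 FPKM with HA/Mg and 131 to 162 with TABS. Dcstamp, the other gene tested, had a higher mean with TABS but did not pass (log2 change 0.34, limma adjusted p = 0.157). It was 1.12 to 1.55 FPKM with HA/Mg and 1.36 to 3.06 with TABS, with overlap. Of the 5 too low to test, Calcr was listed at 0 in every library. The mean of Ocstamp was higher with TABS (0.00926 FPKM with HA/Mg and 0.0159 with TABS, with overlap). Those of Acp5 (0.526 with HA/Mg and 0.458 with TABS), Ctsk (0.357 and 0.322) and Oscar (0.0122 and 0) were no higher with TABS. The part of these markers in the subunit changes was not tested.

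**Figure D1:**
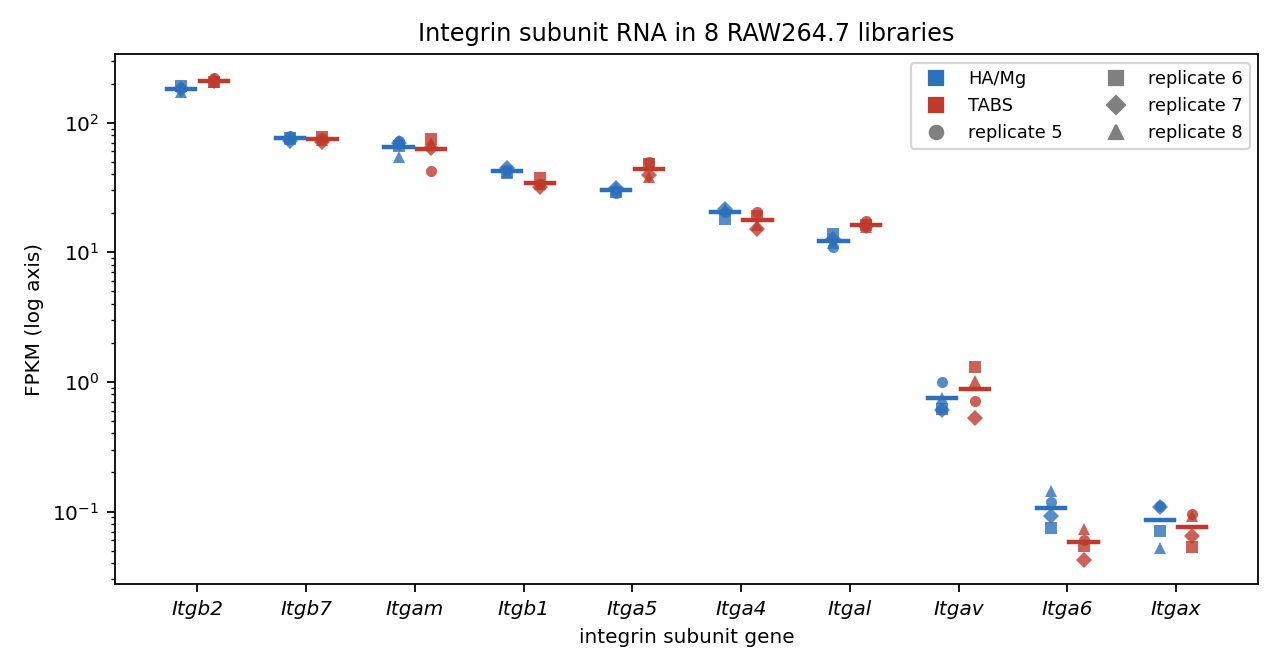
FPKM of the 10 integrin subunit genes (log axis) in each library, HA/Mg in blue and TABS in red, with a marker shape for each replicate number and a bar at each group mean. Itgb2 was the highest, 3 genes stayed at or under 1.30 FPKM, and the groups lay apart for Itgb2, Itgb1, Itga5, Itgal and the near-absent Itga6.

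The beta subunit Itgb2 gave the most RNA of the 10, and it held 41.6% to 47.2% of the summed FPKM of all 27 integrin subunit genes in each library. Together the 10 genes held 98.9% to 99.1% of that sum. Itgb7 was next, at 75.5 ± 3.16 FPKM with HA/Mg and 74.6 ± 2.85 with TABS. The shares and the order here take Itgam alone. Summed with the overlapping gene model Gm49368, described below, Itgam was 113 to 126 FPKM and above Itgb7 in every library. With HA/Mg the order went on with Itgam (65.3 ± 8.05), Itgb1 (42.6 ± 1.81), Itga5 (30.3 ± 1.42), Itga4 (20.4 ± 1.72) and Itgal (12.3 ± 1.16), and no neighbours in this order overlapped in any library. With TABS the order was Itgam (62.7 ± 14.3), Itga5 (43.9 ± 5.85), Itgb1 (34.0 ± 2.47), Itga4 (17.7 ± 2.52) and Itgal (16.3 ± 0.783). There Itgb7 overlapped Itgam, Itgam overlapped Itga5, and Itga4 overlapped Itgal. Itga5 and Itgb1 thus exchanged places between the materials, and within each material they did not overlap.

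Itga5, which gives the fibronectin receptor its ligand specificity, was 28.9, 29.2, 31.4 and 31.6 FPKM in HA/Mg replicates 5 to 8. It was 50.1, 47.7, 39.5 and 38.4 FPKM in TABS replicates 5 to 8. All TABS libraries lay above all HA/Mg libraries, and TABS replicates 5 and 6 lay above TABS replicates 7 and 8. Its mean was 1.45-fold higher with TABS, a log2 change of 0.51 ± 0.09 (SE, limma adjusted p = 0.0109). The gene (ENSMUSG00000000555) lies on GRCm38 at chr15:103344286-103366763 on the minus strand.

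Itgb1, the beta partner of Itga5 and of most matrix-binding alpha subunits, was 42.8, 42.0, 45.0 and 40.7 FPKM in HA/Mg replicates 5 to 8. In TABS replicates 5 to 8 it was 33.4, 37.5, 31.7 and 33.6 FPKM. Every TABS library was below every HA/Mg library. The mean was 1.25-fold lower with TABS, a log2 change of -0.32 ± 0.06 (limma adjusted p = 0.0125). Itgb1 (ENSMUSG00000025809) lies at chr8:128685654-128733200 on the plus strand.

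Because Itga5 and Itgb1 moved in opposite directions, the 250 bases before each start are shown, from RefSeq's GRCm38.p6 table, which held 7 of the 10 genes and lacked Itga6, Itgal and Itgb2. Capitals mark GAGGAA, a core of sites for PU.1 and related factors, and GGGCGG, a core of sites for Sp factors, on either strand.
Itga5 (chr15:103366792-103367041, minus strand): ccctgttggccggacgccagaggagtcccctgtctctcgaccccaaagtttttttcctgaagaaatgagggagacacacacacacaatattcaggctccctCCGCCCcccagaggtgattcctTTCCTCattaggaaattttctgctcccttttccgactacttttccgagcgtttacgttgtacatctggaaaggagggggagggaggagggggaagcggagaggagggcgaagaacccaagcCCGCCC
Itgb1 (chr8:128685404-128685653, plus strand): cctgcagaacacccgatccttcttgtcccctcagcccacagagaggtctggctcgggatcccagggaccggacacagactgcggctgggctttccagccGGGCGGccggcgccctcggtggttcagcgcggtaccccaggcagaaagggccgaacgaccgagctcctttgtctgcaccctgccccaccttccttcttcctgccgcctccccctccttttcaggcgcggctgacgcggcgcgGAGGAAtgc
The Itga5 stretch held GAGGAA 1 time and GGGCGG 2 times, and the Itgb1 stretch held each 1 time. Of 32851 promoters of the same length 23.3% held GAGGAA and 32.7% held GGGCGG, so the letters are common. The Itgb1 stretch was 68.0% G and C with 21 CpG pairs, the Itga5 stretch 55.6% with 11, against medians of 52.4% and 6 over all promoters. Neither held TATAAA (12.4% of all promoters), CCAAT (33.8%) or TGANTCA (6.75%), an AP-1 core, on either strand, and none of the motif matches overlapped another.

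Itgal, the alpha subunit of LFA-1, was 11.1, 13.8, 12.6 and 11.8 FPKM in HA/Mg replicates 5 to 8 and 17.4, 16.4, 15.8 and 15.7 FPKM in TABS replicates 5 to 8. The groups did not overlap, and HA/Mg replicate 6 was the HA/Mg library nearest to TABS. The mean was 1.33-fold higher with TABS, a log2 change of 0.39 ± 0.07 (limma adjusted p = 0.0116). Itgal (ENSMUSG00000030830) lies at chr7:127296260-127335138 on the plus strand.

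Itgb2, the common beta subunit of the leukocyte integrins, was 186, 192, 183 and 172 FPKM in HA/Mg replicates 5 to 8. It was 220, 206, 208 and 204 FPKM in TABS replicates 5 to 8. The groups lay apart, though the step from the highest HA/Mg to the lowest TABS library was smaller than the range within either group. The mean was 1.14-fold higher with TABS, a log2 change of 0.19 ± 0.05 (limma adjusted p = 0.0242). That call ended when any one of TABS replicates 5 and 7 and HA/Mg replicates 5, 7 and 8 was dropped (limma adjusted p of 0.0502 to 0.0717), with no filter on low values (0.0540), after rescaling to equal sums (0.0590) and with quantile normalization (0.116). Itgb2 (ENSMUSG00000000290) lies at chr10:77530252-77565708 on the plus strand.

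Itga5, Itgal and Itgb1 kept their calls and directions under each of those scalings, with median-of-ratios scaling, and with each library left out in turn (limma adjusted p up to 0.0449). Without HA/Mg replicate 6, the library that stood apart, the 4 genes passed at limma adjusted p of 0.00374 to 0.0105. Among all genes 28.0% of calls were higher with TABS, a share that was 13.9% with equal sums, 45.5% with median-of-ratios scaling, 40.3% with quantile normalization and 40.6% with length and GC trends removed.

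Base composition differed between the called subunits that rose and Itgb1, which fell. The longest transcripts of Itga5, Itgal and Itgb2 were 57.3%, 53.2% and 53.1% G and C, and that of Itgb1 was 44.8%. Of the subunits not called, Itga4 was at 41.1%, Itgam at 48.9% and Itgb7 at 58.0%. Their log2 changes were -0.20, -0.08 and -0.02, so Itgb7 did not follow. A relation of composition to change was not tested over these genes. After the dependence of each library on transcript length and GC content was taken out, Itga5 stayed at 0.47 ± 0.07 (limma adjusted p = 0.0199) and Itgal at 0.40 ± 0.08 (adjusted p = 0.0319). The change of Itgb1 shrank from -0.32 to -0.17 ± 0.05 and no longer passed (adjusted p = 0.0792). Itgb2 moved to 0.17 ± 0.05 (adjusted p = 0.0824), so 2 of the 4 calls remained.

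**Figure D2:**
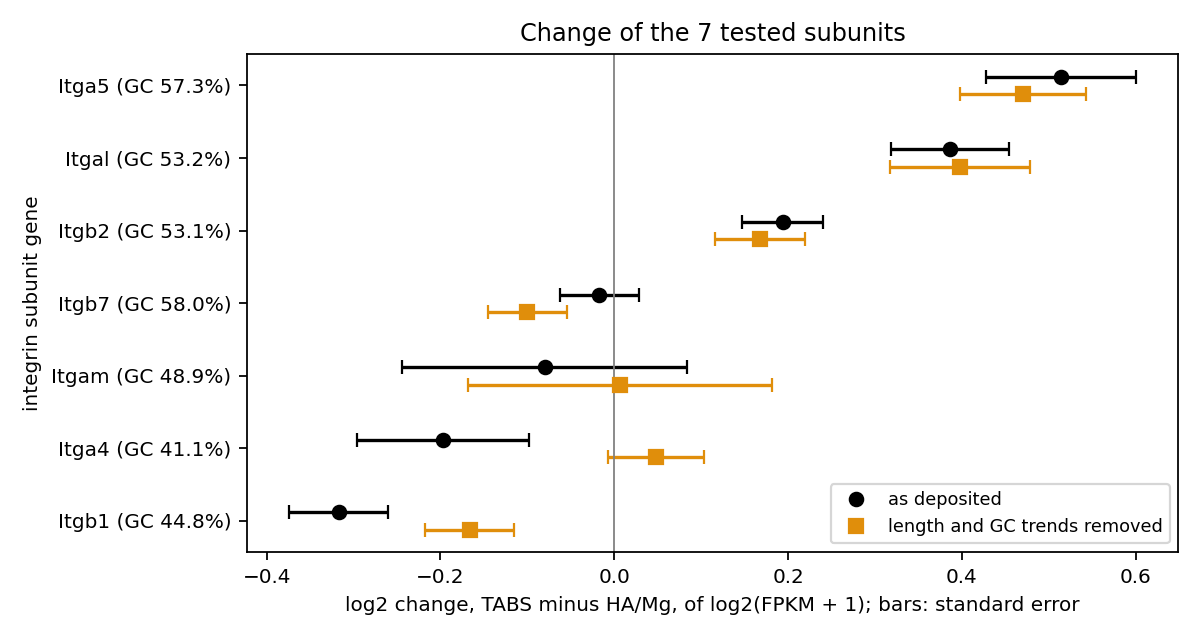
Log2 change (TABS minus HA/Mg, on log2(FPKM + 1)) with its standard error for the 7 tested subunits, as deposited (black) and with length and GC trends removed (orange), beside the GC content of the longest transcript. Itga5 and Itgal kept their size, Itgb1 moved from -0.32 to -0.17, and Itga4 moved from -0.20 to 0.05.

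Itga4, the alpha subunit shared by the Itgb1 and Itgb7 pairs, was 20.5, 17.9, 21.5 and 21.6 FPKM in HA/Mg replicates 5 to 8 and 20.6, 18.9, 15.0 and 16.4 FPKM in TABS replicates 5 to 8. The groups overlapped, and TABS replicate 5 lay among the HA/Mg libraries. Its log2 change was -0.20 with a 95% interval of -0.42 to 0.02 (limma adjusted p = 0.178), and 0.05 ± 0.05 with length and GC trends removed. Itgb7, its mucosal-homing partner, ranged from 72.0 to 79.4 FPKM with HA/Mg and from 70.8 to 77.5 with TABS. Its log2 change was -0.02 with a 95% interval of -0.12 to 0.08 (limma adjusted p = 0.812), so a change of more than 0.12 in either direction lies outside that interval. Itga4 (ENSMUSG00000027009) lies at chr2:79255426-79333123 on the plus strand and Itgb7 (ENSMUSG00000001281) at chr15:102215995-102231944 on the minus strand.

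Itgam, the alpha subunit of Mac-1 and a standard macrophage marker, needs a second gene model to be read. Gm49368 (ENSMUSG00000108596, chr7:128062683-128128160, plus strand) starts just inside Itgam (ENSMUSG00000030786, chr7:128062640-128118491, plus strand) and runs past its end. The models share 3450 exon bases, or 68.7% of the exon bases of Itgam and 71.8% of those of Gm49368, on the same strand, so fragments from the shared exons cannot be assigned by position or strand. Gm49368 was brought in after its values were seen. None of the other 9 genes shared exons with a gene above 0.123 FPKM.

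Itgam was 71.9, 65.6, 69.9 and 53.9 FPKM in HA/Mg replicates 5 to 8 and 42.6, 75.4, 63.5 and 69.4 FPKM in TABS replicates 5 to 8. Gm49368 was 49.1, 58.2, 51.3 and 58.8 FPKM in HA/Mg replicates 5 to 8 and 83.3, 46.8, 56.3 and 48.9 FPKM in TABS replicates 5 to 8. The library lowest in Itgam, TABS replicate 5, was the highest in Gm49368. Itgam spanned a 1.77-fold range over the 8 libraries and Gm49368 a 1.78-fold range, while their sum spanned 1.12-fold, from 113 to 126 FPKM. Itgam made up 33.9% of the sum in TABS replicate 5 and 47.8% to 61.7% in the other libraries. Alone, Itgam had a log2 change of -0.08 with a 95% interval of -0.45 to 0.29 (limma adjusted p = 0.758). As a sum with Gm49368 it was 120 ± 4.83 FPKM with HA/Mg and 122 ± 3.31 with TABS, a log2 change of 0.02 with a 95% interval of -0.07 to 0.12 (limma adjusted p = 0.731). The sum narrowed the interval and gave no call either.

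**Figure D3:**
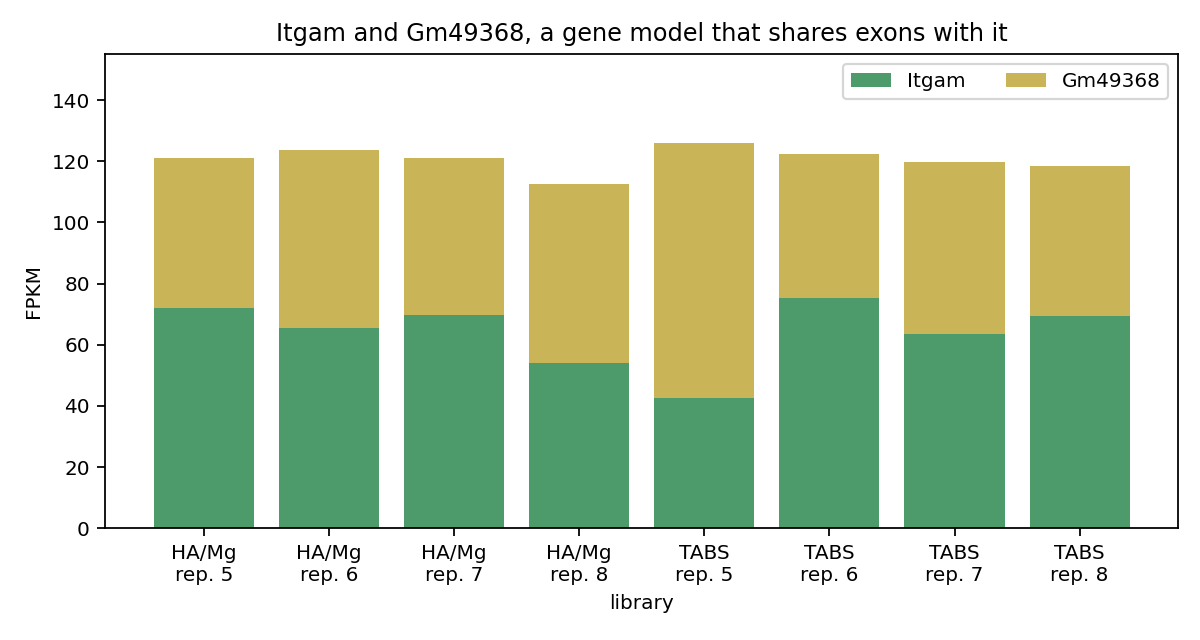
FPKM of Itgam (green) and of Gm49368 (yellow), stacked for each library. The boundary between the colours moved from 42.6 to 75.4 FPKM, while the full height stayed between 113 and 126 FPKM.

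Itgax, the CD11c subunit typical of dendritic cells, lies beside them at chr7:128129547-128150657 on the plus strand (ENSMUSG00000030789), yet was nearly silent. It was 0.0524 to 0.111 FPKM with HA/Mg and 0.0530 to 0.0959 with TABS, and the groups overlapped. The stretches before the starts of these neighbours, Itgam with ample RNA and Itgax with almost none, are shown with the same marks.
Itgam (chr7:128062390-128062639, plus strand): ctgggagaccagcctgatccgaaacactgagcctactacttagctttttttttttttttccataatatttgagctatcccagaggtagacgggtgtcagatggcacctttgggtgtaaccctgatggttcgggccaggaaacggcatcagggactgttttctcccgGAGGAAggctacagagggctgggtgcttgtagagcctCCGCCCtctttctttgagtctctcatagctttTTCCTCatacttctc
Itgax (chr7:128129300-128129549, plus strand): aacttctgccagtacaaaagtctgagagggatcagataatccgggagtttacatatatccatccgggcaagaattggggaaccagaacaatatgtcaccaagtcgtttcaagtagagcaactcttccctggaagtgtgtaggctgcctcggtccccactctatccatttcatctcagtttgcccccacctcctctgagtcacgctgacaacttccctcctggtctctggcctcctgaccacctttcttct
The Itgam stretch held GAGGAA 2 times and GGGCGG 1 time. The Itgax stretch held neither, but held CCAAT 1 time and TGANTCA 1 time, which the Itgam stretch lacked. They were alike in composition, at 49.6% and 50.0% G and C with 6 and 5 CpG pairs. A match is a description of letters and not a binding site, and these windows leave out any site farther away.

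Itga6, a laminin-binding alpha subunit, was 0.118, 0.0746, 0.0929 and 0.143 FPKM in HA/Mg replicates 5 to 8 and 0.0605, 0.0545, 0.0421 and 0.0739 FPKM in TABS replicates 5 to 8. The groups did not overlap, but at this level the gene was outside the test. Itgav, which binds vitronectin and osteopontin with several beta subunits, was 0.996, 0.621, 0.610 and 0.758 FPKM in HA/Mg replicates 5 to 8 and 0.706, 1.30, 0.529 and 1.02 FPKM in TABS replicates 5 to 8. The groups overlapped, and TABS held both the highest and the lowest library. Itga6 (ENSMUSG00000027111) lies at chr2:71745616-71858416 and Itgav (ENSMUSG00000027087) at chr2:83724397-83806916, both on the plus strand.

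Possible alpha-beta pairs were compared by the ratio of alpha to beta FPKM within each library, which equal scaling of a library does not move. Differences were taken on log2(FPKM + 1) and compared with all 70 ways of dividing the libraries 4 against 4, a two-sided exact permutation test. Its smallest p is 0.0286, and over the 8 pairs the adjusted p can pass 0.05 only if at least 5 pairs reach it. Here 4 pairs reached it, so 0 pairs passed. Ratios did not overlap in 2 of the 8 pairs, Itga5 with Itgb1 and Itgal with Itgb2. The Itgav to Itgb1 ratio (0.0176 ± 0.00436 with HA/Mg, 0.0257 ± 0.00820 with TABS) and the Itgax to Itgb2 ratio (0.000464 ± 0.000152, 0.000364 ± 9.56e-05) reached the smallest p but overlapped. The Itga6 to Itgb1 ratio fell (0.00253 ± 0.000775 to 0.00170 ± 0.000391) while its tested difference was 0.25. With 0.1 added instead of 1, the smallest adjusted p was 0.114.

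The Itga5 to Itgb1 ratio moved the most. It was 0.675, 0.696, 0.699 and 0.776 in HA/Mg replicates 5 to 8 and 1.50, 1.27, 1.25 and 1.14 in TABS replicates 5 to 8. Itga5 lay below Itgb1 in all 4 HA/Mg libraries and above it in all 4 TABS libraries. The mean ratio rose 1.81-fold, and the log2 difference was 0.83 ± 0.09 (exact permutation p = 0.0286, adjusted p = 0.0571 over 8 pairs). With length and GC trends removed the difference was 0.64, and with any 1 library left out it was 0.76 to 0.89.

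The Itga4 to Itgb1 ratio was 0.479 ± 0.0427 with HA/Mg and 0.521 ± 0.0660 with TABS (exact permutation p = 0.343, adjusted p = 0.343). The Itga4 to Itgb7 ratio was 0.271 ± 0.0299 and 0.237 ± 0.0269 (exact permutation p = 0.143, adjusted p = 0.190). Both pairs overlapped between the materials. With length and GC trends removed the log2 difference of the Itga4 to Itgb7 pair turned from -0.18 to 0.15 (adjusted p = 0.107), and that of the Itga4 to Itgb1 pair went from 0.12 to 0.21 and passed (exact permutation, adjusted p = 0.0476 over 5 pairs). Without TABS replicate 5 the latter was 0.04, and without HA/Mg replicate 6 it was 0.07. Within the alpha subunits listed here that can join Itgb1, together with Itga7, Itga5 held 56.1% ± 1.44 of the FPKM with HA/Mg and 67.0% ± 1.16 with TABS, and Itga4 held 37.7% ± 1.45 and 27.0% ± 0.932. The summed FPKM of 12 alpha partners of Itgb1 was 1.20 to 1.40 times that of Itgb1 itself with HA/Mg and 1.75 to 2.24 times with TABS.

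For the leukocyte pairs the beta subunit was in excess in every library. The Itgal to Itgb2 ratio was 0.0671 ± 0.00519 with HA/Mg and 0.0779 ± 0.00159 with TABS, with no overlap (exact permutation p = 0.0286, adjusted p = 0.0571). The Itgam to Itgb2 ratio was 0.356 ± 0.0350 and 0.301 ± 0.0756, with overlap (exact permutation p = 0.229, adjusted p = 0.261). With Gm49368 added to Itgam, a setting added once the data had been seen, that ratio was 0.652, 0.644, 0.662 and 0.655 in HA/Mg replicates 5 to 8 and 0.572, 0.592, 0.576 and 0.580 in TABS replicates 5 to 8. It lay apart in the materials and was 1.13-fold lower with TABS (log2 difference -0.17 ± 0.01, exact permutation p = 0.0286, adjusted p = 0.0457). In that setting 5 pairs reached the smallest p and all 5 passed, and they include the Itgav and Itgax pairs, where the alpha value is near or under the added 1 and the difference mostly carries that of the beta subunit. The adjusted p of 0.0457 needed all 5, so the pass of the Itgam sum rests on the Itgav and Itgax pairs too. With 0.1 added in place of 1 and Itgam taken alone, both of those stood at 0.274 (exact permutation, adjusted).

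**Figure D4:**
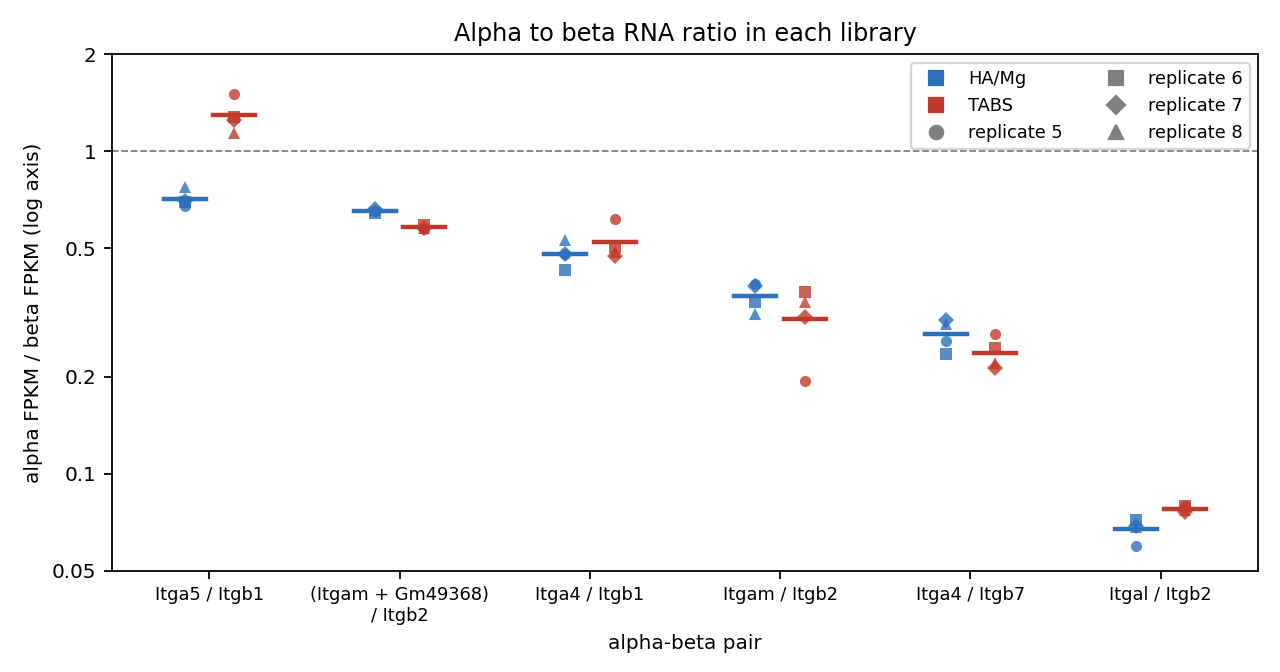
Alpha to beta FPKM ratio (log axis) in each library for 5 pairs and for the Itgam plus Gm49368 sum over Itgb2, HA/Mg in blue and TABS in red, with a bar at each mean and a dashed line at 1. Only the Itga5 to Itgb1 pair, at 0.675 to 0.776 with HA/Mg and 1.14 to 1.50 with TABS, crossed the line.

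Among the alpha partners of Itgb2, Itgal held 15.9% ± 2.09 of the FPKM with HA/Mg and 21.3% ± 5.19 with TABS, with overlap (exact permutation p = 0.0571, adjusted p = 0.114 over 4 subunits). TABS replicate 5, low in Itgam, stood at 29.0%. With Gm49368 counted with Itgam the share of Itgal was 9.30% ± 0.682 and 11.8% ± 0.220, without overlap (exact permutation p = 0.0286, adjusted p = 0.0571). Itgax held 0.108% ± 0.0280 and 0.102% ± 0.0436 of the sum, and Itgad was at 0 FPKM in 5 libraries.

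Of the 17 other integrin subunits 15 were under 1 FPKM in every library, 6 of them at 0 throughout, and 0 of the 2 tested passed (limma). Itga7, a laminin-binding subunit of muscle, was 2.47 ± 0.153 FPKM with HA/Mg and 2.93 ± 0.211 with TABS (limma adjusted p = 0.0788). Itgb5, a partner of Itgav, was 1.48 ± 0.144 and 1.64 ± 0.152 FPKM (limma adjusted p = 0.377). Itgb3, the beta subunit that joins Itgav in the osteoclast vitronectin receptor, stayed at 0.0723 to 0.168 FPKM.

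Of 16 genes that switch integrins on from inside the cell 12 were tested, 1 fell and 11 did not pass, where 18.1% of all tested genes passed. Tln1 (talin), which binds beta tails, was 99.1 ± 7.06 FPKM with HA/Mg and 102 ± 6.89 with TABS, and Fermt3 (kindlin-3), its partner in blood cells, 49.0 ± 6.68 and 54.8 ± 3.07; Tln1 shares exons with Creb3 and Fermt3 with Trpt1. Rap1a, a small GTPase upstream of talin, fell from 46.9 ± 1.56 to 35.5 ± 2.55 FPKM (limma adjusted p = 0.00851, or 0.0632 with length and GC trends removed). With those trends removed the one call in this group was Apbb1ip (RIAM), which links Rap1 to talin, at 14.0 ± 0.578 and 14.2 ± 0.880 FPKM as deposited (adjusted p = 0.0303, or 0.828 as deposited). Of 7 tested restrainers of integrin activity 1 rose, the adaptor Dok2 (22.4 ± 1.60 to 27.3 ± 1.73 FPKM, limma adjusted p = 0.0228, or 0.0929 with those trends removed). The Dok2 call also ended when any one of TABS replicates 5, 7 and 8 and HA/Mg replicates 5 and 7 was dropped (adjusted p up to 0.0746). Of 10 tested trafficking genes 1 rose and 1 fell, a share close to the 18.1% of all tested genes that passed. Ehd1, a recycling factor, went from 216 ± 7.21 to 251 ± 6.37 FPKM (limma adjusted p = 0.0139), and Vps35, a retromer subunit that shares exons with Orc6, from 26.1 ± 1.79 to 20.9 ± 0.981 FPKM (adjusted p = 0.0135). With those trends removed neither passed (adjusted p = 0.0689 and 0.395), and Ehd1 did not pass without HA/Mg replicate 5 (0.0536) or 7 (0.0511).

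Of 24 kinases and adaptors that act downstream of integrins, 21 were tested, 4 rose, 1 fell and 16 did not pass, where 5.07% of all tested genes rose and 13.1% fell. Fgr, a Src-family kinase of myeloid cells, rose from 8.70 ± 1.14 to 13.9 ± 1.22 FPKM, a log2 change of 0.63 ± 0.09 (limma adjusted p = 0.00851). The focal adhesion kinases divided: Ptk2 (FAK) fell from 9.15 ± 0.352 to 7.56 ± 0.324 FPKM (adjusted p = 0.0169) and Ptk2b (PYK2) rose from 21.0 ± 1.31 to 25.7 ± 1.41 FPKM (adjusted p = 0.0168). Lcp2, an adaptor (65.5 ± 2.63 to 77.9 ± 8.28 FPKM), and Parvg, a parvin of blood cells (81.2 ± 0.876 to 89.1 ± 2.49 FPKM), rose as well (limma adjusted p = 0.0474 and 0.0363). With length and GC trends removed Fgr, Ptk2b and Lcp2 still passed (adjusted p = 0.0228, 0.0471 and 0.0276), and Ptk2 and Parvg did not (0.166 and 0.129). The call of Lcp2 held only without TABS replicate 7 or 8 and that of Parvg only without TABS replicate 8 or HA/Mg replicate 6, with adjusted p up to 0.124 and 0.104 when another library was dropped. Without HA/Mg replicate 5 Ptk2 (0.0586) and Ptk2b (0.0590) did not pass, nor did Ptk2 without HA/Mg replicate 7 (0.0610).

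Of 32 genes for integrin ligands 9 were tested, 3 rose and 6 did not pass, where 5.07% of all tested genes rose. Icam1, a ligand of LFA-1 and Mac-1, rose from 11.9 ± 0.624 to 15.7 ± 1.93 FPKM (limma adjusted p = 0.0197, or 0.0460 with length and GC trends removed). Icam5 rose from 3.74 ± 0.169 to 4.70 ± 0.243 FPKM and Tgfb1, whose latent form binds integrins with Itgav, from 56.9 ± 4.94 to 67.9 ± 4.19 FPKM (limma adjusted p = 0.0190 and 0.0335), and neither passed with the trends removed (0.0903 and 0.0999). Icam1 did not pass when HA/Mg replicate 5 (adjusted p = 0.0655) or 7 (0.0548) was dropped, nor did Icam5 when either of these or TABS replicate 5 was dropped (up to 0.0673). That of Tgfb1 held only without HA/Mg replicate 6 (up to 0.0949 otherwise). Spp1 (osteopontin), a ligand for Itgav and Itga4 pairs, was the most abundant of the list at 1918 ± 82.7 FPKM with HA/Mg and 1817 ± 119 with TABS (limma adjusted p = 0.394). Fn1 (fibronectin), a ligand of the Itga5 and Itga4 pairs, did not exceed 0.0429 FPKM in any library, and Vcam1 was listed at 0 in all 8.

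Genes whose course over the 8 libraries lay nearest to a member were found by the root mean square difference of log2(FPKM + 1) deviations. The search ran over 6384 genes that averaged 5 FPKM or more. It passed over the subunits and every gene of the integrin and marker lists, so a listed gene can lie nearer than those named here. Nearest to Itga5 were Nfkb2 (44.2 ± 2.18 FPKM with HA/Mg and 63.0 ± 9.14 with TABS, difference 0.0641) and Slc6a12 (41.5 ± 3.66 and 56.3 ± 7.59, difference 0.0708). Nearest to Itgal were Pea15a (difference 0.0341) and Por (0.0394), and nearest to Itgb1 were Npm1 (0.0327) and Ascc3 (0.0437). Rpl10-ps1, a pseudogene whose reads may come from its parent gene, and Flot1 were nearest to Itgb2 (0.0259 and 0.0270). Small distances favour genes that vary little, and 8 libraries in 2 groups give many near neighbours.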

How the data were processed

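RNA-seq of 8 RAW264.7 libraries was used. TRIzol extraction, NEBNext Ultra libraries and paired-end NovaSeq reads are stated per the labels' protocols. The authors deposited FPKM values for 55335 genes, and the submitters' processing notes name fastp, STAR, DESeq2 and the build GRCm38. Their versions, the FPKM program, the annotation and the strand setting were not given in the sources used here. FPKM divides by length and library total, so a rise in abundant transcripts lowers other values, and fragments in exons shared by overlapping genes must be divided between them. Symbols, positions and exon overlaps came from GENCODE M21 (GRCm38), which named 55154 of the identifiers. The fit used limma 3.58.1 in R 4.3.3 on log2(FPKM + 1), with a mean-variance trend, for genes reaching 1 FPKM in 4 or more libraries; fold changes on this scale understate those of low genes. It was also run on simulated data with known changes and noise drawn independently for each gene. Such data lack differences that genes share within a library, so that run cannot vouch for the calls made here. The genes, lists and pairs were chosen with earlier results of these data known. Named genes were the 10 subunits, the other tested subunits, up to 4 called genes of each integrin list by size of log2 change (the 2 smallest p where none was called), 4 macrophage markers and, among genes outside the lists, the 2 nearest patterns per called subunit. Parvg, Apbb1ip, Tln1, Fermt3, Spp1, Fn1, Vcam1, Itgb3, Itgad, Gm49368, Lims1, Cbl, Cx3cr1, Rsu1, Vcl and the other cell type markers fall outside this rule and were picked with their values in view. Alternatives were pseudocounts of 0.1 and 0.5, other filters, scalings, moderation, array weights, a replicate block, removal of length and GC trends (natural splines, 99.96% of tested genes covered) and each library left out.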

Additional observations from a re-analysis of the deposited data

Results flagged for a closer look

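In 3 of 114 groups of 4 libraries examined, 1 library stood far from the others (gap over range above Dixon's 95% critical value, which chance gives in about 1 of 20 groups). Fgr was 10.4 FPKM in HA/Mg replicate 6 and 8.02 to 8.33 FPKM in the other HA/Mg libraries, a gap of 0.869 of the range. Tgfb1 was 74.2 FPKM in TABS replicate 7 and 65.6 to 66.0 FPKM in the other TABS libraries, a gap of 0.952. Lims1 (PINCH-1), which links integrin-linked kinase to the cytoskeleton, was 6.83 FPKM in HA/Mg replicate 6 and 18.7 to 19.1 FPKM in the other HA/Mg libraries, a gap of 0.969, with 12.1 to 19.5 FPKM across TABS. These 3 are not every such case among the listed genes. Vcl was 5.07 FPKM in HA/Mg replicate 6 and 3.43 to 3.63 FPKM in the other HA/Mg libraries. Rsu1 was 11.1 FPKM in TABS replicate 6 and 11.8 to 11.9 FPKM in the other TABS libraries.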

How the results depend on the processing

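The number of genes called over the whole table, 1842, was 808 with no filter on low values, 3532 with array weights and 647 with length and GC trends removed. Leaving out 1 library gave 429 to 3320 calls: 429, 3320, 475 and 694 when HA/Mg replicates 5, 6, 7 and 8 were dropped in turn, and 858, 1143, 943 and 1227 for TABS replicates 5 to 8. With the replicate number as a replicate block limma called 0 genes and 0 subunits (2987 genes at an unadjusted p under 0.05, smallest adjusted p 0.0589). The labels do not say whether the numbers pair the libraries. Deviations of same-numbered libraries correlated at 0.01, -0.27, -0.16 and 0.13, and 1 of 4 TABS libraries correlated best with its own number. With so few libraries these values cannot settle whether the numbers pair them. Of the 4 subunits called, 2 remained with length and GC trends removed, and 3 or 4 with 1 library left out. Of the 8 pairs 0 passed, but 3 of 5 passed with length and GC trends removed and 5 of 8 with Itgam and Gm49368 summed (added after the data were seen). Fewer pairs could be fitted with quantile normalization or trend removal because Itga6, Itgav and Itgax did not enter. With 1 library left out the permutation test cannot go below 0.0571, so those ratios have no test. The signs of Itga4, Itgam and Itgb7, none of them called, turned in 1, 3 and 3 of 21 alternatives. Depth is known only as an estimate, so no counting error is given for Itga6, Itgav or Itgax.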

Other observations

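Besides Itgam, 2 further genes had single libraries well below the rest without passing Dixon's limit. Cbl, a ubiquitin ligase that acts on receptors and integrin signals, was 3.20 FPKM in TABS replicate 6 and 3.25 FPKM in HA/Mg replicate 8, against 6.53 to 9.97 FPKM in the other 6 libraries. Cx3cr1, a chemokine receptor of macrophages, was 2.26 FPKM in TABS replicate 6 and 5.09 to 7.38 FPKM elsewhere. Neither these genes nor Lims1 overlapped an exon of any gene that reached 1 FPKM in 4 or more libraries. They were named after their values were seen.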
